A study of Homo sapiens with 18 samples.

Results

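A set of 9 genes that the tumour suppressor p53 induces was followed through oncogene-induced senescence and N-myristoyltransferase inhibition: MDM2, GADD45A, BTG2, BBC3, PMAIP1, TP53I3, ZMAT3, SESN1 and RRM2B. They were taken by symbol from the 28266 gene rows of 1 table of raw read counts, and all 9 were among the 14341 genes that passed the filter on low counts. The cells were IMR90 ER:RAS, a line of human lung fibroblasts labelled WT that carries a fusion of RAS with the oestrogen receptor, which 4-hydroxytamoxifen (4OHT) switches on to induce senescence. Senescent cells had received 100 nM 4OHT and control cells DMSO, the solvent, and after 7 days each state was given DMSO, IMP1088 (at 300 nM) or DDD86481 (at 1.5 µM) for 3 days, up to collection on day 10. IMP1088 and DDD86481 are N-myristoyltransferase inhibitors (NMTi), which stop the transfer of the fatty acid myristate to the N-terminal glycine of proteins. Every group carried ER:RAS and came from 1 cell line, and no group had 4OHT without active RAS, so the effects of 4OHT itself and of RAS cannot be told apart. The design gave 6 groups of 3 libraries, and the labels do not say that replicates were separate cultures, so p-values measure the spread between these libraries, which may be technical.

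The protein p53 is a transcription factor that is kept at a low level by MDM2, a ubiquitin ligase that marks it for degradation, and that accumulates when DNA damage kinases or oncogene signalling disturb that control. It binds a response element built of a pair of decamers and turns on genes for cell cycle arrest, DNA repair, nucleotide supply, antioxidant defence and apoptosis, along with MDM2 itself, which closes a negative feedback loop. In fibroblasts with active RAS, p53 and its target CDKN1A, which encodes the cyclin-dependent kinase inhibitor p21, are known to hold the cells in senescent arrest.

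A pair of promoters shows how such an element looks. RefSeq promoter windows on GRCh38.p14, from 250 bases before to 50 after a start, were found for 7 of the 9 genes, and GADD45A and RRM2B had no entry. Both strands were searched for the p53 decamer consensus, allowing no mismatch, and for a pair of decamers with at most 2 mismatches in all. The pair is printed for MDM2 because it lies before a downstream start of that gene, and the decamer for SESN1 because it was the exact match among these windows. Capitals mark the decamers, mismatches included.
MDM2, chr12:68808918-68808947, plus strand: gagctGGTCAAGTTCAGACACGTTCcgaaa
SESN1, chr6:109009023-109009042, minus strand: cgtctGGACAAGTCTccaca
The MDM2 pair had 2 mismatches and began 94 bases before 1 downstream start, whereas the windows of the upstream starts held no match. The SESN1 decamer began 49 bases before an internal start. Of 35116 RefSeq windows of 300 bases, 6.63% held an exact decamer and 2.93% a pair, and the windows of BTG2, BBC3, PMAIP1, TP53I3 and ZMAT3 held neither. A match is a string of letters and not a measured binding site, and elements outside these windows were not searched.

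Library totals ran from 16143716 to 23189950 counts, and levels are given as CPM, read counts relative to the library total after TMM scaling. Replicates of a group differed from the mean of the others by a root mean square of 0.269 to 0.478 on the log2 scale, and control DMSO replicate 3 was at the upper end of that range, so results printed here whose call changes without it are also given that way. All 10 fibroblast markers examined were present in every group, with a summed level of 27729.8 to 42439 CPM in control libraries. In senescent libraries the sum was 23079 to 25240.0 CPM with DMSO, 16083 to 18276 with IMP1088 and 16369 to 18382 with DDD86481, so that it moved with the inhibitors without overlap. The markers split between control and senescent cells with DMSO. DCN, the proteoglycan decorin, went from a mean of 3042 to 7.73 CPM. COL1A1, COL1A2, COL3A1, LUM, PDGFRA, PDGFRB and THY1 also had lower means in senescent cells. VIM and FN1 went the other way, from means of 5035 to 11681 CPM and of 5781 to 7572 CPM. The summed markers of epithelial cells (5 genes, of which KRT5, SFTPC and NKX2-1 were at 0) reached at most 1.49 CPM. Endothelial markers (4 genes) summed to 1.17 to 3.97 CPM in control libraries and, in senescent libraries, to 10.3 to 10.7 CPM with DMSO, 5.68 to 6.56 with IMP1088 and 6.01 to 9.06 with DDD86481, with CDH5 at 0 in control cells with an inhibitor. The part of these shifts in the results was not tested. In bulk RNA, fewer cells expressing a gene and less of its RNA in each cell cannot be told apart.

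Senescence moved the 9 genes in both directions. With DMSO, 2 of 9 were higher in senescent than in control cells (PMAIP1 and RRM2B) and 5 were lower (MDM2, BTG2, TP53I3, ZMAT3 and SESN1), at an adjusted p under 0.05. The background over the 14341 genes was 32.5% higher and 36% lower. The 9 genes were chosen with earlier results of these data known. Their counts beside such shares are therefore a description and not an independent test. The median log2 fold change was -0.34 over the 9 genes and -0.051 over all genes. CDKN1A, by contrast, rose from 377 ± 34.6 to 2126 ± 159 CPM (SD, n = 3), a 5.65-fold difference. Values after ± are SD for levels and SE for log2 fold changes, and every adjusted p is from the quasi-likelihood test of edgeR, corrected over all 14341 genes. In senescent cells both NMTi lowered target genes: 7 of 9 were lower with IMP1088 and 5 with DDD86481, and none was called higher, against 23.9% and 23.1% of all genes lower and 20.6% and 20.1% higher. In control cells 2 of 9 were lower with IMP1088 and 3 with DDD86481, none higher, where the shares of all genes were 17.4% and 18.7% lower and 16.3% and 17.8% higher. The median log2 fold change of the 9 genes was -0.63 with IMP1088 and -0.44 with DDD86481 in senescent cells, where all genes had -0.043 and -0.037. It was -0.07 and -0.0093 in control cells, where all genes had -0.0011 and 0. Without control DMSO replicate 3 the counts were 3 higher and 5 lower in senescence, and 2 lower with each inhibitor in control cells. The shares of all genes called in that fit are not given, and those above belong to the fit with all libraries. The comparisons with each NMTi share their DMSO libraries, and the senescent DMSO libraries also enter the comparison of senescent with control cells.

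**Figure D1:**
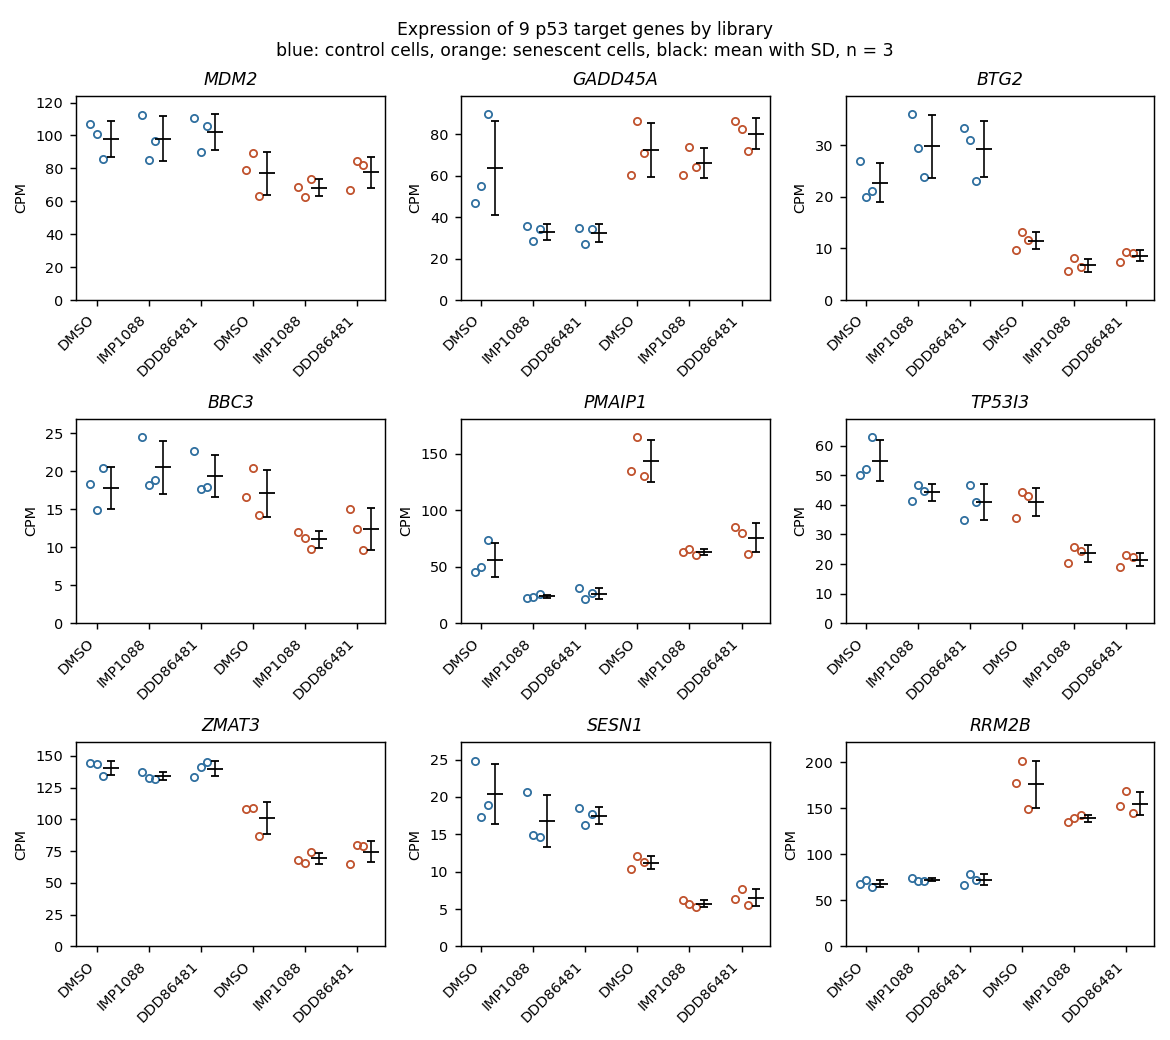
CPM of each of the 9 p53 target genes in every library, with control cells in blue and senescent cells in orange, and the mean with SD (n = 3) in black; the vertical axes start at 0 and differ between genes. PMAIP1 and RRM2B have their highest mean in senescent cells with DMSO, where RRM2B libraries overlap those with DDD86481. BTG2, ZMAT3 and SESN1 are lower in senescent cells, and PMAIP1 falls with both inhibitors in both states.

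MDM2 (chr12:68808172-68850686), the ligase of the feedback loop, showed small differences in every comparison. Positions in parentheses are those of the gene in RefSeq on GRCh38.p14. In control cells it was at 107, 100.7 and 85.5 CPM with DMSO, 112, 84.9 and 96.8 with IMP1088 and 111, 89.7 and 106 with DDD86481. In senescent cells the values were 78.8, 89.3 and 63.1 with DMSO, 68.6, 62.8 and 73.4 with IMP1088 and 66.9, 84.4 and 82 with DDD86481. Senescent DMSO libraries overlapped the control ones, as 1 of them lay above the lowest control library, yet the difference passed the test (-0.34 ± 0.13, 1.27-fold lower, adjusted p = 0.0275). That call rested on single libraries: it was lost on leaving out any of 4 of the 6, where adjusted p ran from 0.00636 to 0.179 over the 6 fits, and the difference was -0.22 without senescent DMSO replicate 3. It was also lost in a fit of these groups alone (adjusted p = 0.0847). Neither inhibitor gave a call, with 95% intervals of -0.46 to 0.11 (IMP1088) and -0.27 to 0.29 (DDD86481) in senescent cells and -0.27 to 0.28 and -0.22 to 0.34 in control cells. Of the exonic bases of MDM2, 14.7% overlap other genes, the largest share (9.45%) with a non-coding RNA on the opposite strand, and counts per gene do not separate its upstream and downstream starts. Its homologue MDM4, which binds and masks p53, fell in senescence from 21.4 ± 0.765 to 10 ± 1.21 CPM (-1.10 ± 0.14, adjusted p = 4.62e-07). In control cells MDM4 rose with IMP1088 (0.41 ± 0.13, adjusted p = 0.0187) and DDD86481 (0.43 ± 0.13, adjusted p = 0.0126), the first of which was lost without control IMP1088 replicate 1 or 2 (adjusted p from 0.0116 to 0.0762 over the 6 fits). In senescent cells it had -0.32 ± 0.14 and -0.22 ± 0.14 with the inhibitors and passed with neither (adjusted p = 0.0763 and 0.238). The IMP1088 estimate passed with the replicate block (-0.33, adjusted p = 0.0453) and without senescent IMP1088 replicate 2 (-0.49, adjusted p = 0.0135, of a range from 0.0135 to 0.364 over the 6 fits).

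GADD45A and BTG2 are arrest genes. GADD45A (chr1:67685201-67688334) encodes a stress sensor that restrains the cell cycle at the G2/M boundary. Control cells had 46.9, 54.8 and 89.6 CPM with DMSO, 35.7, 28.5 and 34.2 with IMP1088 and 35, 27.2 and 34.4 with DDD86481, so that every library with an inhibitor lay under every DMSO library. Senescent cells had 60.4, 86.2 and 70.8 with DMSO, 60.2, 74 and 64 with IMP1088 and 86.5, 82.4 and 71.9 with DDD86481, and these groups overlapped. In control cells GADD45A was 1.94-fold lower with IMP1088 (-0.96 ± 0.18, adjusted p = 0.0005) and 1.98-fold lower with DDD86481 (-0.98 ± 0.19, adjusted p = 0.000388). In senescent cells its 95% intervals were -0.51 to 0.25 and -0.23 to 0.53, with adjusted p = 0.584 and 0.536. The highest control DMSO value came from replicate 3. Without that library the falls in control cells were -0.63, adjusted p = 0.00151 and -0.66, adjusted p = 0.00114. The comparison of senescent with control cells gave 0.19 ± 0.18 (adjusted p = 0.369) and, without replicate 3, 0.51, adjusted p = 0.00282, with adjusted p from 0.00282 to 0.967 over the 6 fits that left out 1 library. Its paralog GADD45B also fell with each inhibitor in control cells (-1.15 ± 0.20, adjusted p = 0.000172, and -1.21 ± 0.20, adjusted p = 0.000109) and fell in senescence (-1.11 ± 0.20, adjusted p = 5.86e-05). In senescent cells GADD45B was lower with IMP1088 (-0.56 ± 0.22, adjusted p = 0.0384, lost on leaving out 4 of the 6 libraries, with adjusted p from 0.0221 to 0.208) and passed no threshold with DDD86481 (0.23 ± 0.21, adjusted p = 0.398). GADD45G was near the floor of 3 counts, at 3 to 8 counts in control libraries and 9 to 27 in senescent ones, and its rise with DDD86481 in senescent cells went from 0.556, 0.623 and 0.604 to 1.47, 1.2 and 1.53 CPM (adjusted p = 0.00528).

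BTG2 (chr1:203305519-203309602) encodes an antiproliferative protein that recruits the deadenylase complex to messenger RNA. It was at 27, 20.1 and 21.1 CPM in control cells with DMSO, 36.1, 29.4 and 23.9 with IMP1088 and 33.4, 31.1 and 23.1 with DDD86481. It was at 9.75, 13.2 and 11.7 in senescent cells with DMSO, 5.58, 8.16 and 6.45 with IMP1088 and 7.43, 9.3 and 9.14 with DDD86481. All 9 senescent libraries lay under all 9 control libraries. With DMSO the difference was 1.97-fold (-0.98 ± 0.18, adjusted p = 7.41e-05), and in senescent cells IMP1088 lowered BTG2 further by 1.72-fold (-0.78 ± 0.20, adjusted p = 0.00279), without overlap of the groups. DDD86481 gave -0.42 ± 0.19 in senescent cells, which missed the threshold (adjusted p = 0.0819) although the groups did not overlap. With no filter on low counts it passed (-0.43, adjusted p = 0.0381). In control cells the estimates had the opposite sign, 0.39 ± 0.17 (adjusted p = 0.0871) and 0.36 ± 0.17 (adjusted p = 0.107), and neither passed. Each passed without control DMSO replicate 1 (0.53, adjusted p = 0.0223 and 0.50, adjusted p = 0.0283). Each also passed without replicate 3 of control cells with that inhibitor (0.54, adjusted p = 0.0326 and 0.51, adjusted p = 0.04). Adjusted p ran from 0.0223 to 0.37 for IMP1088 and 0.0283 to 0.334 for DDD86481 over the 6 fits each. The IMP1088 estimate in control cells passed with no filter as well (0.39, adjusted p = 0.0466). Its paralog BTG1, 16% of whose exonic bases overlap other genes, was at 117 ± 5.56 CPM in control and 119 ± 10.1 in senescent cells with DMSO, and passed the threshold in none of the comparisons with all libraries. In control cells it had 0.27 ± 0.11 (adjusted p = 0.062) and 0.23 ± 0.11 (adjusted p = 0.109), and it passed without replicate 3 of IMP1088 (0.39, adjusted p = 0.015) or of DDD86481 (0.35, adjusted p = 0.0246), where adjusted p ran from 0.015 to 0.25 and from 0.0246 to 0.365.

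**Figure D2:**
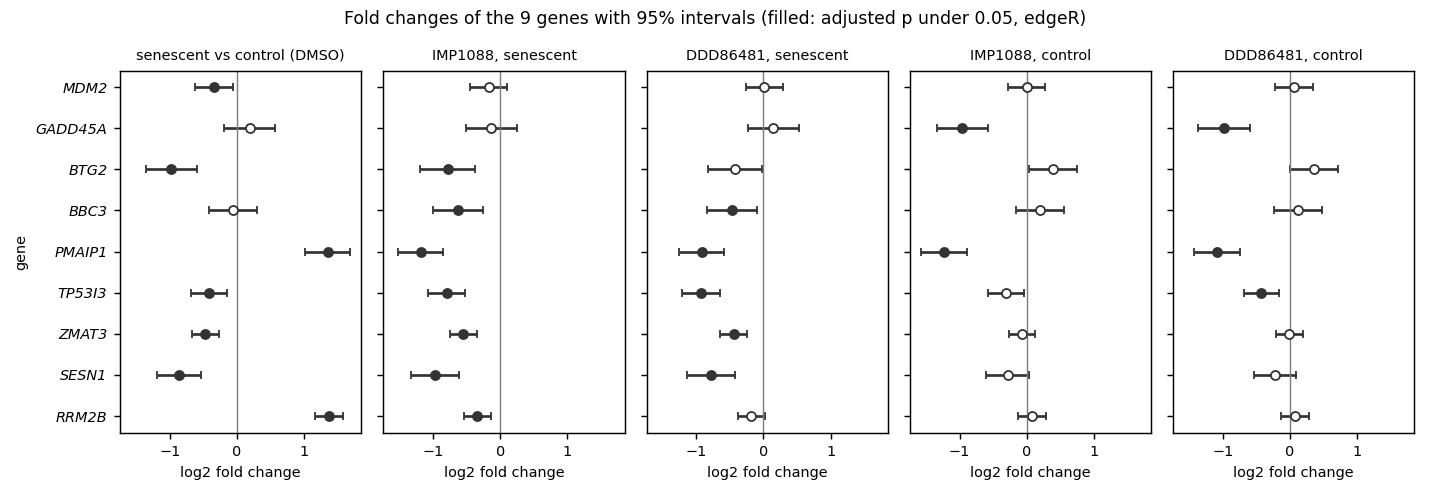
Log2 fold changes (horizontal axes) of the 9 genes (vertical axis) in the 5 comparisons with DMSO or control cells, with 95% intervals; filled points have an adjusted p under 0.05 in edgeR's quasi-likelihood test. Filled points lie on both sides of 0 in the first panel and left of 0 in the panels for the inhibitors.

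Among the genes of cell death, PMAIP1 (chr18:59899996-59904305) passed the test in senescence and with both inhibitors in both states. It encodes NOXA, a BH3-only protein that neutralises the survival factor MCL1. PMAIP1 was at 45.4, 49.3 and 73.3 CPM in control cells with DMSO, 22.6, 23.2 and 25.5 with IMP1088 and 30.8, 21.5 and 26.4 with DDD86481. In senescent cells it was at 135, 164 and 129.9 with DMSO, 62.6, 66 and 60.5 with IMP1088 and 85.2, 80 and 61 with DDD86481. The DMSO libraries of each state lay above all libraries of that state with an inhibitor, and senescent DMSO libraries above all others. PMAIP1 rose 2.56-fold in senescence (1.35 ± 0.16, adjusted p = 2.64e-07). IMP1088 lowered it 2.27-fold in senescent cells (-1.18 ± 0.16, adjusted p = 5.86e-06) and 2.35-fold in control cells (-1.23 ± 0.16, adjusted p = 1.11e-05). With DDD86481 the falls were 1.9-fold (-0.92 ± 0.16, adjusted p = 9.45e-05) and 2.13-fold (-1.09 ± 0.16, adjusted p = 3.95e-05). Senescent cells with an inhibitor had means of 63 ± 2.76 and 75.4 ± 12.7 CPM, beside 56 ± 15.1 in control cells with DMSO. Without control DMSO replicate 3, the highest control library, PMAIP1 had 1.59 in senescence and -0.99 and -0.85 with the inhibitors in control cells, each past the threshold.

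BBC3 (chr19:47220824-47232860) encodes PUMA, the BH3-only protein that antagonises all anti-apoptotic BCL2 proteins. Its levels were 18.3, 14.9 and 20.4 CPM in control cells with DMSO, 24.4, 18.2 and 18.8 with IMP1088 and 22.6, 17.6 and 17.9 with DDD86481. They were 16.6, 20.4 and 14.3 in senescent cells with DMSO, 12, 11.2 and 9.75 with IMP1088 and 15.1, 12.4 and 9.63 with DDD86481. Unlike PMAIP1, BBC3 had no call between senescent and control cells (-0.06 ± 0.17, adjusted p = 0.769), and the groups overlapped. In senescent cells it was 1.55-fold lower with IMP1088 (-0.63 ± 0.18, adjusted p = 0.00681), with no overlap, and 1.38-fold lower with DDD86481 (-0.46 ± 0.18, adjusted p = 0.0405), where 1 library lay within the DMSO range. Both calls were lost without senescent DMSO replicate 2, the highest library (-0.49, adjusted p = 0.0526, and -0.32, adjusted p = 0.208). Over the 6 fits that left out 1 library, adjusted p ran from 0.00466 to 0.0526 and from 0.0141 to 0.208, and the DDD86481 call was lost in 4 of them and in a fit of these groups alone (adjusted p = 0.0501). Control cells had 0.20 ± 0.17 (adjusted p = 0.382) and 0.12 ± 0.17 (adjusted p = 0.611).

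TP53I3 (chr2:24077433-24084834), also called PIG3, encodes a quinone oxidoreductase that generates reactive oxygen species. Its values were 50, 52 and 62.8 CPM in control cells with DMSO, 41.2, 46.9 and 44.6 with IMP1088 and 34.9, 46.9 and 41 with DDD86481. Senescent cells showed 35.5, 44.4 and 43.1 with DMSO, 20.4, 25.9 and 24.4 with IMP1088 and 19.1, 23 and 22.5 with DDD86481, and each inhibitor group lay under its DMSO group in both states. TP53I3 was 1.34-fold lower in senescence (-0.42 ± 0.13, adjusted p = 0.00639). It fell 1.74-fold with IMP1088 (-0.80 ± 0.13, adjusted p = 5.28e-05) and 1.91-fold with DDD86481 (-0.93 ± 0.13, adjusted p = 1.1e-05) in senescent cells. In control cells it was 1.34-fold lower with DDD86481 (-0.42 ± 0.13, adjusted p = 0.0134), a call lost without control DDD86481 replicate 1 (-0.31, adjusted p = 0.0945), without control DMSO replicate 3 (-0.32, adjusted p = 0.0613) and in a fit of these groups alone (adjusted p = 0.064). The fits that left out 1 library spanned adjusted p from 0.0061 to 0.0945. With IMP1088 it had -0.31 ± 0.13 in control cells (adjusted p = 0.0636), and with the replicate number as a block, since same-numbered libraries deviated together, -0.31, adjusted p = 0.0136. It also passed under upper quartile scaling (-0.37, adjusted p = 0.0386) and without control DMSO replicate 1 (-0.37, adjusted p = 0.0312), and had -0.21, adjusted p = 0.24 without control DMSO replicate 3, the ends of the range over the 6 fits.

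ZMAT3 (chr3:179017223-179072513) encodes a zinc finger protein that binds RNA and acts in splicing and mRNA stability. Control libraries kept within a narrow range, 144, 144 and 134 CPM with DMSO, 138, 133 and 132 with IMP1088 and 133, 142 and 145 with DDD86481. Senescent libraries had 108, 109 and 86.8 with DMSO, 68, 65.9 and 74 with IMP1088 and 65.2, 79.7 and 78.9 with DDD86481, all under the control libraries. ZMAT3 was 1.39-fold lower in senescence (-0.48 ± 0.096, adjusted p = 0.0002), and in senescent cells it fell 1.46-fold with IMP1088 (-0.55 ± 0.097, adjusted p = 0.000122) and 1.36-fold with DDD86481 (-0.44 ± 0.097, adjusted p = 0.001), without overlap. The 95% intervals in control cells were -0.27 to 0.13 and -0.21 to 0.19.

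SESN1 (chr6:108984309-109094846) encodes sestrin 1, which relays stress and low leucine to the kinase mTORC1, and 1 of its promoter windows held the decamer match printed above. Levels were 24.9, 17.4 and 18.9 CPM in control cells with DMSO, 20.7, 15 and 14.6 with IMP1088 and 18.5, 16.3 and 17.7 with DDD86481. They were 10.3, 12.1 and 11.3 with DMSO, 6.16, 5.7 and 5.27 with IMP1088 and 6.28, 7.73 and 5.52 with DDD86481 in senescent cells, where all senescent libraries lay under all control libraries and the inhibitor libraries under the DMSO ones. In control cells the groups overlapped. The gene was 1.82-fold lower in senescence (-0.86 ± 0.16, adjusted p = 6.48e-05). In senescent cells it fell 1.96-fold with IMP1088 (-0.97 ± 0.17, adjusted p = 0.000115) and 1.72-fold with DDD86481 (-0.78 ± 0.17, adjusted p = 0.000919). Neither inhibitor gave a call in control cells (-0.28 ± 0.15, adjusted p = 0.158, and -0.22 ± 0.15, adjusted p = 0.268), except that IMP1088 passed without control IMP1088 replicate 1 (-0.46, adjusted p = 0.04, against adjusted p from 0.04 to 0.582 over the 6 fits). The other sestrins differed from each other. SESN3 fell 5.67-fold in senescence, from 25.4 ± 6.99 to 4.48 ± 0.603 CPM (-2.50 ± 0.21, adjusted p = 2.12e-09), whereas SESN2, which is induced by the transcription factor ATF4 as well, had -0.016 ± 0.20 (adjusted p = 0.945). With the inhibitors SESN3 had -0.57 ± 0.25 and -0.52 ± 0.25 in senescent cells (adjusted p = 0.0683 and 0.0997), although the groups did not overlap. With IMP1088 it passed in DESeq2 (adjusted p = 0.0453), with no filter (adjusted p = 0.0256) and in the compared groups alone (adjusted p = 0.0193), and with DDD86481 with no filter (adjusted p = 0.0467). In control cells it had -0.48 ± 0.19 (adjusted p = 0.0569, or -0.47, adjusted p = 0.0423 with the replicate block) and -0.32 ± 0.19 (adjusted p = 0.186). Without control DMSO replicate 3 both passed (-0.66, adjusted p = 0.00487, and -0.51, adjusted p = 0.0256), where adjusted p ran from 0.00487 to 0.286 and from 0.0256 to 0.637 over the 6 fits each. SESN3 with IMP1088 also passed under upper quartile scaling (adjusted p = 0.0356) and with no filter (adjusted p = 0.0175). SESN2 rose with DDD86481 in control cells (0.53 ± 0.19, adjusted p = 0.0386), although the groups overlapped, and the call was lost on leaving out any of 4 of the 6 libraries, control DMSO replicate 3 among them (0.45, adjusted p = 0.103, of a range from 0.00414 to 0.245). The call was also lost under upper quartile scaling (adjusted p = 0.0606) and in the compared groups alone (adjusted p = 0.11). With IMP1088 SESN2 had 0.44 ± 0.19 in control and 0.43 ± 0.20 in senescent cells (adjusted p = 0.0825 and 0.0825). Both passed with no filter (adjusted p = 0.0157 and 0.0186), the second also in the compared groups alone (adjusted p = 0.00294). Leaving out control DMSO replicate 1 or control IMP1088 replicate 2 gave passes in control cells (adjusted p = 0.0101 and 0.0284). Without senescent DMSO replicate 2 it passed in senescent cells (adjusted p = 0.0187).

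RRM2B, on chromosome 8, encodes p53R2, the small subunit of ribonucleotide reductase that supplies deoxynucleotides outside S phase. It held at 67.7, 72.3 and 64.5 CPM in control cells with DMSO, 74.2, 71.4 and 71.3 with IMP1088 and 66.3, 78.3 and 72 with DDD86481. In senescent cells it stood at 178, 201 and 149 with DMSO, 136, 139 and 143 with IMP1088 and 152, 169 and 145 with DDD86481, all above the control libraries. RRM2B rose 2.58-fold in senescence (1.37 ± 0.10, adjusted p = 1.9e-10). In senescent cells it was 1.26-fold lower with IMP1088 (-0.34 ± 0.099, adjusted p = 0.00823), a call lost without senescent DMSO replicate 2 (-0.23, adjusted p = 0.0769, where adjusted p ran from 0.00113 to 0.0769 over the 6 fits). With DDD86481 it had -0.18 ± 0.098 (adjusted p = 0.145), and it passed without senescent DMSO replicate 3 (-0.29, adjusted p = 0.0234, of a range from 0.0234 to 0.596). In control cells the intervals were -0.12 to 0.29 and -0.13 to 0.29. The subunit used in S phase, RRM2, went the other way in senescence, from 32.6, 33.5 and 36 to 5.37, 4.11 and 5.55 CPM (-2.76 ± 0.16, adjusted p = 4.95e-12). Control cells with an inhibitor had about the level of senescent cells, 4.06, 5.12 and 5.29 CPM with IMP1088 (-2.81 ± 0.16, adjusted p = 2.98e-10) and 5.01, 4.71 and 3.97 with DDD86481. RRM1, the large subunit that both share, fell in senescence from 71.5 ± 3.91 to 45.7 ± 0.309 CPM (-0.65 ± 0.081, adjusted p = 5.53e-07). It rose again in senescent cells with IMP1088 (0.64 ± 0.081, adjusted p = 2.66e-06) and DDD86481 (0.67 ± 0.081, adjusted p = 1.46e-06), and fell in control cells with each (-0.36 ± 0.08, adjusted p = 0.00158, and -0.35 ± 0.08, adjusted p = 0.00213). Per kilobase of exon, RRM2B and RRM2 stood at 12.7 ± 0.727 and 3.72 ± 0.189 CPM in control cells with DMSO. In senescent cells with DMSO they stood at 32.7 ± 4.79 and 0.547 ± 0.0858. That length merges the exons of all annotated transcripts, 5391 bases for RRM2B and 9153 for RRM2. Comparison of the genes therefore depends on the annotation. Before division by length they had 68.2 ± 3.92 and 34 ± 1.73 CPM in control cells with DMSO.

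**Figure D3:**
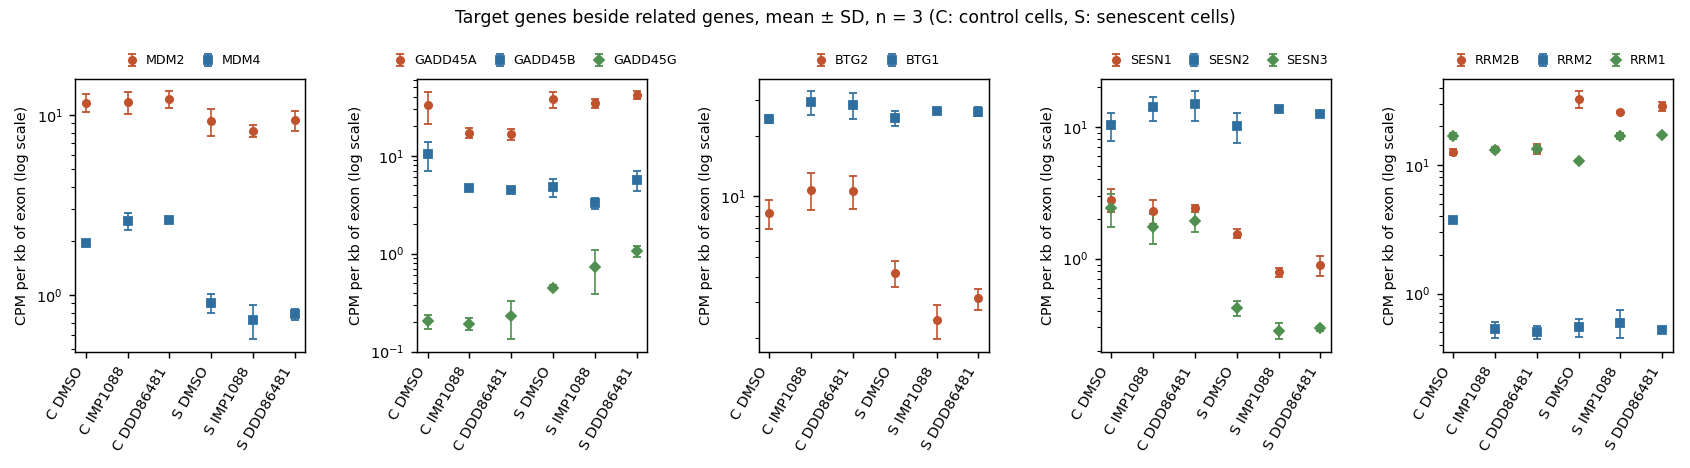
Mean CPM per kilobase of exon ± SD (n = 3, log axis) of 5 target genes beside their paralogs and RRM1, the partner subunit of RRM2B and RRM2, in control (C) and senescent (S) cells with DMSO, IMP1088 or DDD86481. RRM2 drops with each inhibitor in control cells to about its level in senescent cells, while RRM2B is higher in senescent cells, and BTG1 stays above BTG2 in all 6 groups.

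Levels can be ordered between genes only per length, here that of the merged exons of all annotated transcripts, and the order depends on it. Per kilobase of exon, control cells with DMSO had the mean levels (CPM per kilobase ± SD) GADD45A 33.1 ± 11.8, PMAIP1 25.6 ± 6.91, TP53I3 23.8 ± 2.98, RRM2B 12.7 ± 0.727, ZMAT3 12.5 ± 0.491, MDM2 11.8 ± 1.34, BTG2 8.25 ± 1.36, BBC3 5.6 ± 0.866 and SESN1 2.8 ± 0.544. GADD45A, PMAIP1 and TP53I3 did not differ beyond their spread, nor did RRM2B, ZMAT3 and MDM2. Senescent cells with DMSO had PMAIP1 at 65.4 ± 8.51, GADD45A at 37.6 ± 6.74, RRM2B at 32.7 ± 4.79, TP53I3 at 17.7 ± 2.09, MDM2 at 9.28 ± 1.58, ZMAT3 at 8.97 ± 1.12, BBC3 at 5.37 ± 0.972, BTG2 at 4.19 ± 0.626 and SESN1 at 1.54 ± 0.122. There GADD45A and RRM2B lay within their spread, as did MDM2 and ZMAT3, and BBC3 and BTG2, and PMAIP1 stood above the rest.

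Whether an inhibitor acted differently in the 2 states was tested by an interaction, its effect in senescent cells minus its effect in control cells. For IMP1088, 1 of the 9 genes had a higher and 5 a lower effect in senescent cells, beside 12.1% and 14.2% of all genes. For DDD86481 the counts were 1 and 3, beside 14.4% and 15.9%. BTG2 had the largest difference among the 9 with IMP1088, -1.17 ± 0.26 (adjusted p = 0.00279), and -0.78 ± 0.26 with DDD86481 (adjusted p = 0.0273). Its estimates were negative in senescent and positive in control cells. GADD45A differed the other way, 0.82 ± 0.26 (adjusted p = 0.0238) and 1.13 ± 0.26 (adjusted p = 0.00318), since it fell in control cells and had no call in senescent cells. ZMAT3 had -0.48 ± 0.14 (adjusted p = 0.0144) and -0.43 ± 0.14 (adjusted p = 0.0221). For ZMAT3, BBC3, SESN1, RRM2B and TP53I3, which inhibitor passed depended on the setting, and whether the interactions differ between the inhibitors was not tested. BBC3 had -0.83 ± 0.25 and -0.58 ± 0.25 (adjusted p = 0.0176 and 0.0767), and SESN1 had -0.69 ± 0.23 and -0.56 ± 0.23 (adjusted p = 0.0322 and 0.0685). RRM2B had -0.42 ± 0.14 and -0.26 ± 0.14 (adjusted p = 0.0315 and 0.16), and TP53I3 had -0.49 ± 0.18 and -0.51 ± 0.18 (adjusted p = 0.0535 and 0.042). PMAIP1, which fell in both states, had intervals of -0.42 to 0.52 and -0.30 to 0.64, and MDM2 of -0.57 to 0.22 and -0.44 to 0.35. Of the 59 other pathway genes described further on, 3 had a higher and 13 a lower effect in senescent cells for IMP1088, and 4 and 11 for DDD86481. Leaving out 1 of the 12 libraries left between 2 and 6 calls among the 9 genes for IMP1088 and between 1 and 5 for DDD86481. The shares of all genes called in those fits are not given. The fewest came without control IMP1088 replicate 1 (2 calls) and without control DMSO replicate 2, control DDD86481 replicate 2 or senescent DMSO replicate 2 (1 call each). For IMP1088 the call was lost in 8 of the 12 fits for RRM2B (adjusted p from 0.00728 to 0.106), 7 for SESN1 (from 0.00439 to 0.135), 3 for BBC3 (from 0.00792 to 0.0726) and 1 for ZMAT3 (from 0.00357 to 0.057), and for DDD86481 in 7 for TP53I3 (from 0.0128 to 0.158), 6 for ZMAT3 (from 0.00584 to 0.0831) and 5 for BTG2 (from 0.00662 to 0.0892). RRM2B for IMP1088 and TP53I3 for DDD86481 were also lost under upper quartile scaling (adjusted p = 0.0681 and 0.0739). The compared groups alone lost both (adjusted p = 0.0617 and 0.0934), SESN1 for IMP1088 (adjusted p = 0.0584) and ZMAT3 for DDD86481 (-0.39, adjusted p = 0.0903). TP53I3 for IMP1088 passed with RLE scaling (adjusted p = 0.0483), no filter (adjusted p = 0.0427), DESeq2 (adjusted p = 0.0362) and the replicate block (adjusted p = 0.0113). With the block BBC3 and SESN1 passed for DDD86481 too (adjusted p = 0.0495 and 0.0473), and BBC3 also with no filter (adjusted p = 0.0375). Without control DMSO replicate 3 the IMP1088 interaction had -0.38, adjusted p = 0.0502 for RRM2B, -0.64, adjusted p = 0.0546 for SESN1 and -0.59, adjusted p = 0.0161 for TP53I3, and the DDD86481 interaction -0.69, adjusted p = 0.0429 for BBC3. Without that library GADD45A had 0.50, adjusted p = 0.0593 for IMP1088 and 0.81, adjusted p = 0.00319 for DDD86481, where adjusted p ran from 0.0021 to 0.0696 and from 0.000192 to 0.0121.

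**Figure D4:**
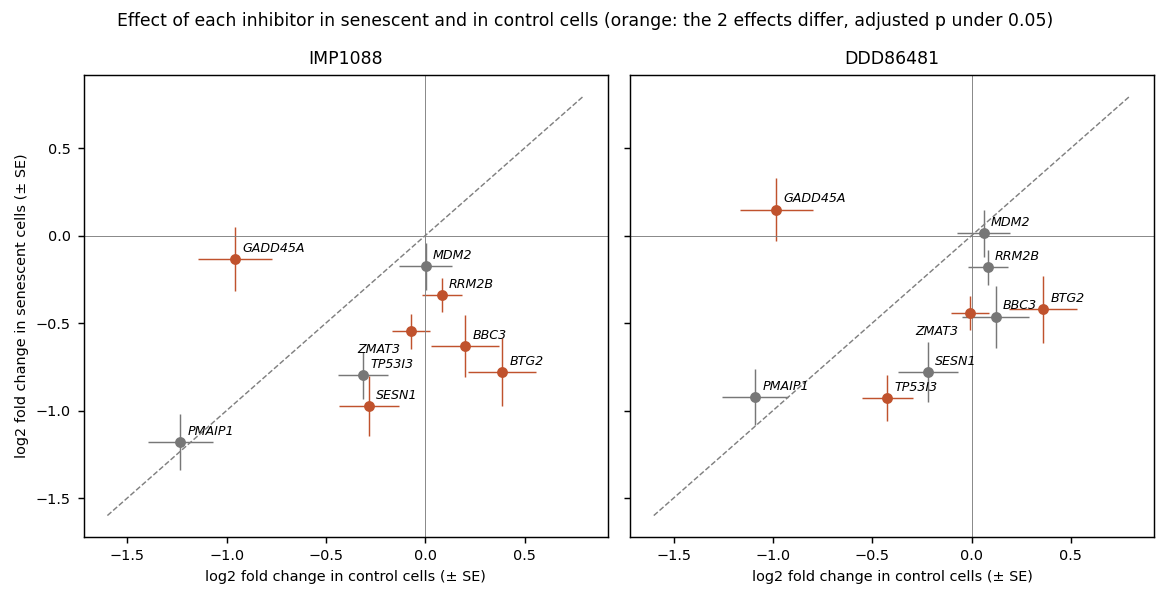
Log2 fold change ± SE of each of the 9 genes with IMP1088 (left) and DDD86481 (right) in control cells (horizontal axis) and in senescent cells (vertical axis); the dashed line marks equal effects, and orange points have an adjusted p under 0.05 for the difference. PMAIP1 lies near the line in both panels, GADD45A above it, and BTG2 and ZMAT3 below it.

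IMP1088 and DDD86481 were also set against each other, at doses that differ (300 nM and 1.5 µM). Of the 14341 genes, 0% were called higher and 0% lower in either state by edgeR, with 0 of the 9 genes among them. DESeq2 also called 0 genes in each state. At an unadjusted p under 0.05, 570 genes in senescent and 141 in control cells differed, of which 0 were among the 9. The 95% intervals of the difference in senescent cells were -0.59 to 0.073 for PMAIP1, -0.77 to 0.056 for BTG2, -0.56 to 0.18 for SESN1 and -0.15 to 0.41 for TP53I3. In control cells they were -0.36 to 0.41 for GADD45A and -0.49 to 0.21 for PMAIP1. RRM2B had groups that did not overlap in senescent cells, lower with IMP1088 (-0.16 ± 0.098, adjusted p = 1). A difference that misses the threshold does not show that the compounds act alike.

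Around the 9 genes, 62 others of the p53 pathway were listed by role, and 59 passed the filter (SFN, TP53AIP1 and GLS2 had at most 7 counts in a library). These lists too were written with earlier results of these data known, so their counts are a description. In senescence 21 of the 59 were higher and 20 lower, where 32.5% of all genes were higher and 36% lower, with a median of 0.11 beside -0.051 over all genes. Of 8 arrest genes 4 were higher and 1 lower. CDKN1A rose by 2.50 ± 0.11 (adjusted p = 7.88e-14), and E2F7, a repressor of E2F target genes, rose from 5.8 ± 2.6 to 186 ± 18.5 CPM (4.98 ± 0.23, adjusted p = 8.99e-14). Of 14 death genes 6 were higher and 3 lower, among them the BH3-only gene BID, which rose (0.86 ± 0.11, adjusted p = 6.85e-07), and the death receptor FAS, which fell (-0.70 ± 0.12, adjusted p = 5.02e-05). Other genes overlap 25.7% of the exonic bases of FAS. The 13 stress, metabolism and autophagy genes had 5 higher and 4 lower. GDF15, a secreted stress cytokine, rose from 47.3 ± 5.49 to 775 ± 58.3 CPM (4.03 ± 0.16, adjusted p = 1.23e-14), and DRAM1, a lysosomal membrane protein of autophagy, fell (-2.22 ± 0.09, adjusted p = 1.34e-14), as did CMBL, a hydrolase (-1.27 ± 0.098, adjusted p = 3.9e-10). The 8 genes of repair and nucleotide supply had 2 higher and 4 lower, the 8 of feedback and p53 stability 3 and 5, and the 8 damage kinases and partners upstream of p53 1 and 3. Under upper quartile scaling the split of the 59 was 17 higher and 24 lower, beside 3795 higher and 6149 lower over all genes. The higher share of all calls was then 38.2%, beside 47.5% with TMM, and the median of all genes shifted by -0.15.

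With IMP1088 in senescent cells 3 of the 59 were higher and 22 lower (median -0.24, all genes -0.043), and with DDD86481 4 and 22 (median -0.14, all genes -0.037). Of all genes, 20.6% and 20.1% were higher and 23.9% and 23.1% lower. The death list had 0 higher and 7 lower of 14 with IMP1088 and 0 and 7 with DDD86481, FAS among the lower with -1.04 ± 0.13 (adjusted p = 2.89e-06) and -0.95 ± 0.13 (adjusted p = 8.07e-06). Of the 8 arrest genes 4 and 3 were lower and 0 and 1 higher. CDKN1A went from 1952, 2160.1 and 2265 CPM with DMSO to 1199.8, 1451 and 1308 with IMP1088 and 1255, 1474 and 1437 with DDD86481, still above all control libraries. KITLG, the ligand of the receptor KIT, had risen in senescence (1.41 ± 0.14, adjusted p = 2.53e-08) and fell with IMP1088 (-1.49 ± 0.14, adjusted p = 7.62e-08) and DDD86481 (-1.22 ± 0.14, adjusted p = 9.83e-07). Estimates against the shared senescent DMSO libraries are not independent. TP53I11, a gene named for its induction by p53, fell with each (-1.06 ± 0.098, adjusted p = 4.48e-08, and -1.05 ± 0.098, adjusted p = 5.9e-08), and so did TRIM22, an interferon-inducible ubiquitin ligase (-1.20 ± 0.16, adjusted p = 3.38e-06, and -1.15 ± 0.15, adjusted p = 5.77e-06). GDF15 rose with each inhibitor (0.40 ± 0.14, adjusted p = 0.0282, and 0.54 ± 0.14, adjusted p = 0.00414), as did RCHY1, a further ubiquitin ligase of p53 (0.45 ± 0.13, adjusted p = 0.00851, and 0.47 ± 0.13, adjusted p = 0.00649). The lists of repair and nucleotide supply (1 higher and 3 lower of 8 with IMP1088, 1 and 4 with DDD86481), stress (1 and 4 of 13, 1 and 5), feedback (1 and 3 of 8, 1 and 2) and upstream partners (0 and 1 of 8, 0 and 1) make up the rest.

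In control cells 5 of the 59 were higher and 18 lower with IMP1088 (median -0.11, all genes -0.0011), and 9 and 18 with DDD86481 (median -0.09, all genes 0). Of all genes, 16.3% and 17.8% were higher and 17.4% and 18.7% lower. GDF15 rose from 41.3, 48.5 and 52 CPM with DMSO to 138, 202 and 149.5 with IMP1088 (1.79 ± 0.15, adjusted p = 2.96e-08) and 153, 166 and 141 with DDD86481 (1.70 ± 0.15, adjusted p = 5.98e-08). TP53BP1, a repair protein that binds p53, rose too (0.70 ± 0.15, adjusted p = 0.00115, and 0.77 ± 0.15, adjusted p = 0.000498). However, TUBGCP4 on the opposite strand covers 28.8% of the exonic bases of TP53BP1. It had 155, 132 and 82.5 CPM in control DMSO libraries, the lowest in replicate 3. Its range was 181 to 216 with IMP1088 and 189 to 224 with DDD86481. BID fell with each (-0.69 ± 0.11, adjusted p = 7.44e-05, and -0.68 ± 0.11, adjusted p = 8.74e-05), and so did RRM2, the latter by 2.90 ± 0.16 with DDD86481 (adjusted p = 2.7e-10). CDKN1A had -0.13 ± 0.11 (adjusted p = 0.369) and -0.15 ± 0.11 (adjusted p = 0.299) in control cells. By role, the repair and nucleotide list had 0 higher and 5 lower of 8 with IMP1088 and 0 and 5 with DDD86481, and the death list 0 and 5 of 14, and 1 and 5. The upstream list had 3 higher and 2 lower of 8 with IMP1088 and 4 and 2 with DDD86481, and the arrest list 0 and 3 with each. The feedback list had 1 higher and 1 lower, and 2 and 1, and the stress list 1 and 2 of 13, and 2 and 2. Without control DMSO replicate 3 the calls among the 59 were 18 with IMP1088 and 21 with DDD86481, and in fits of the groups compared alone 15 and 17. The shares of all genes called in those fits are not given, so these counts have no background beside them.

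**Figure D5:**
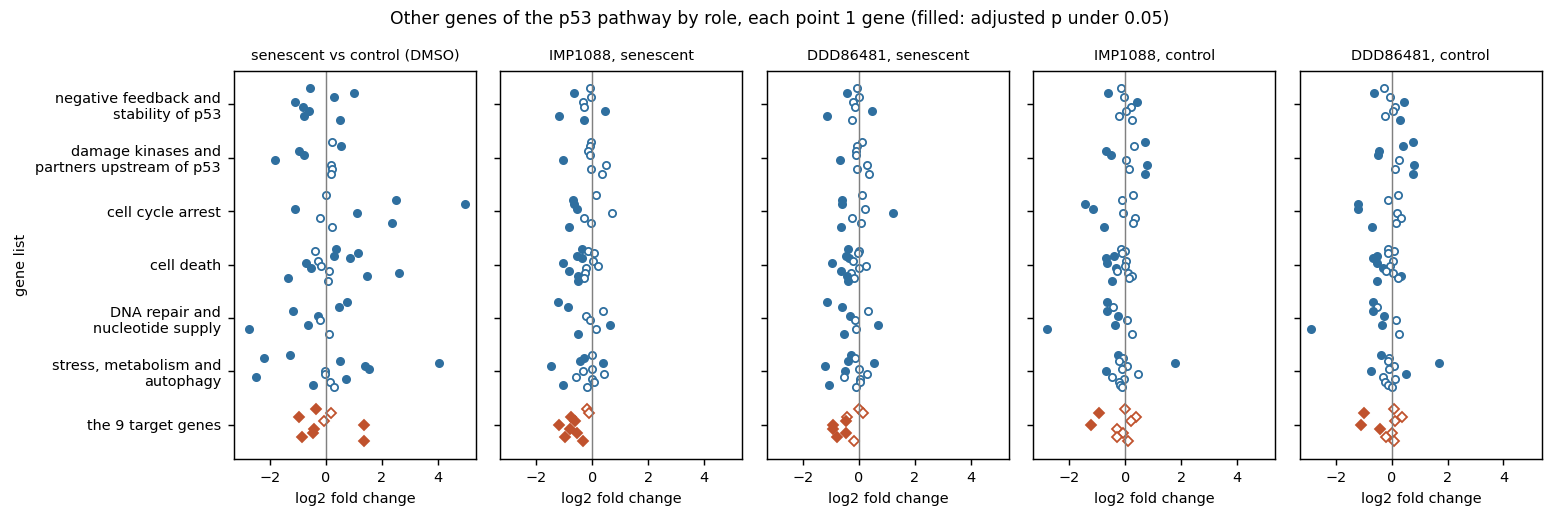
Log2 fold changes (horizontal axes) of 59 other p53 pathway genes, 1 blue point each, by role (vertical axis), with the 9 target genes as orange diamonds, in the 5 comparisons with DMSO or control cells; filled symbols have an adjusted p under 0.05. With the inhibitors in senescent cells 22 of 59 are called lower with each and 3 and 4 higher.

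For each of the 9 genes the genes with the most similar profile were taken by Pearson's r of log2 CPM over the 18 libraries, which share states and treatments, as a description. MDM2 was closest to TOR1AIP2 (r = 0.931) and PCDHGA2 (r = 0.909), GADD45A to NME1 (r = 0.967) and SNRPD3 (r = 0.957) and BTG2 to TMEM100 (r = 0.979) and LPCAT3 (r = 0.978). BBC3 was closest to NSG1 (r = 0.931) and TMEM79 (r = 0.92), PMAIP1 to ACTR3 (r = 0.978) and ARHGAP18 (r = 0.977) and TP53I3 to LRRC17 (r = 0.971) and PCBP4 (r = 0.968). ZMAT3 was closest to TLE4 (r = 0.984) and EDIL3 (r = 0.984), SESN1 to MINDY1 (r = 0.98) and WWTR1 (r = 0.974) and RRM2B to OGFRL1 (r = 0.988) and COL7A1 (r = 0.986). None of these 18 genes is among the 9 or in the 6 lists by role, but these held only 9 and 59 of the 14341 genes tested.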

How the data were processed

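Poly(A) RNA was sequenced from 18 libraries, 3 in each of 6 groups taken from the labels. The authors deposited whole-number read counts per gene, not normalised. Their processing notes name DRAGEN, STAR 2.7.8a, DESeq2 1.32.0 and hg38 without roles, whereas the methods of the study describe directional libraries aligned with TopHat to an earlier human build. HTSeq, a read counter, is listed among the software of the study, but the strand setting of the counting is not given in the sources used here, so genes that overlap others are uncertain.

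Counts were fitted with edgeR 4.0.16 (R 4.3.3, limma 3.58.1): TMM scaling, filterByExpr, 1 quasi-likelihood fit of 6 groups with 12 residual degrees of freedom, and Benjamini-Hochberg adjustment over the 14341 genes of 28266 that passed, which held 99.962% of all counts. The threshold was an adjusted p of 0.05, the prior count 2 and the floor 3 counts per library. Intervals are at 95% and cover the spread between libraries. The pipeline was tested on counts simulated with the spread estimated in the same fit. The simulated libraries were independent, so shared replicate effects and a library that stands apart were not covered. Alternatives were DESeq2 1.42.0, RLE and upper quartile scaling, no filter, a replicate block, fits of the compared groups alone and leaving out each library. Figures were drawn with Python 3.11.15 and matplotlib 3.10.9. Exon lengths and overlaps came from a GENCODE annotation, with the exons of all annotated transcripts of a gene merged. Positions and promoters came from RefSeq on GRCh38.p14.

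Named were the 9 genes, their paralogs, RRM1, CDKN1A and, in each of the 5 comparisons with DMSO or control cells, the 3 pathway genes with the smallest adjusted p in each direction among those past the threshold, and for each of the 9 the 2 genes with the highest correlation. BID, FAS, TRIM22, TP53I11, KITLG and RCHY1 are also given in comparisons outside that rule. The 9 genes and all lists were chosen with earlier results of these data known. The gene encoding p53 and 1 damage kinase that the rule took are not reported here. Replicates were compared, and the lowest chi-square per gene between any pair was 5.09, so none was counted as a duplicate. Same-numbered libraries deviated together, with a correlation over 0.1 in every pair, for IMP1088 with DMSO in control cells (0.394, 0.123 and 0.231) and for IMP1088 with DDD86481 in senescent (0.117, 0.126 and 0.119) and control cells (0.101, 0.270 and 0.129). That pairing rests on these correlations, as the labels name no shared batch.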

Additional observations from a re-analysis of the deposited data

Results flagged for a closer look

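In the fit of all libraries, the interaction in edgeR's quasi-likelihood test passed the threshold for the genes below. Each value is the log2 effect in senescent cells less the one in control cells. Of all genes, 12.1% had a higher and 14.2% a lower effect in senescent cells for IMP1088. For DDD86481 the shares were 14.4% and 15.9%.

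For IMP1088 the difference was 0.82 for GADD45A, -1.17 for BTG2, -0.83 for BBC3, -0.48 for ZMAT3, -0.69 for SESN1 and -0.42 for RRM2B. It was -0.73 for MDM4, 2.93 for RRM2, 1.00 for RRM1, and for CDKN1A it was -0.56 (adjusted p = 0.0109). The calls of GADD45A, BBC3, ZMAT3, SESN1 and RRM2B did not hold in every fit that left out a library. Their adjusted p reached 0.0696, 0.0726, 0.057, 0.135 and 0.106, in that order.

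For DDD86481 the difference was 1.13 for GADD45A, -0.78 for BTG2, -0.51 for TP53I3 and -0.43 for ZMAT3. It was -0.65 for MDM4, 1.44 for GADD45B, 2.81 for RRM2, 1.02 for RRM1 and -0.47 for CDKN1A (adjusted p = 0.026). The CDKN1A call for DDD86481 was lost in 6 of the 12 fits without 1 library (adjusted p from 0.00945 to 0.0933) and in the compared groups alone (adjusted p = 0.0539), that for IMP1088 in 1 of 12 (from 0.00368 to 0.056), and that of MDM4 for DDD86481 in 1 of 12 (from 0.0145 to 0.0546). The DDD86481 calls of BTG2, TP53I3 and ZMAT3 did not hold in every such fit either. Their adjusted p reached 0.0892, 0.158 and 0.0831, in that order. Both inhibitors were compared with the same DMSO libraries, so their values are not independent.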

How the results depend on the processing

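No log2 fold change reversed its call under any alternative run. Of the single-gene estimates in fits without 1 library, 1834 kept their side of the threshold, 102 lost a call and 44 gained one. With only the compared groups in the fit, pathway calls in control cells went from 23 to 15 for IMP1088 and from 27 to 17 for DDD86481, and calls among the 9 genes in the DDD86481 interaction from 4 to 2. Fits without 1 library gave 2 to 4 calls among the 9 genes for IMP1088 in control cells, 2 to 6 in the IMP1088 interaction, and 1 to 5 in the DDD86481 interaction, where pathway calls ran from 12 to 23. These fits hold fewer libraries, and the causes of the changes were not tested. Upper quartile scaling moved the median of all genes by -0.15 in senescence and by under 0.1 elsewhere. Levels near the floor, as for GADD45G, limit what can be called.

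With the replicate block, calls among the 9 genes were 7 in senescence, 7 with IMP1088 and 5 with DDD86481 in senescent cells, 3 with each in control cells, 7 and 6 in the interactions and 0 between the inhibitors. Pathway calls were 43, 29, 26, 25, 26, 19 and 17 in the same order, and 0 between the inhibitors. Among the 9 genes the split was 2 higher and 5 lower in senescence, and all calls with an inhibitor were lower. The interactions had 1 higher each, and 6 and 5 lower. The shares of all genes called are not given for the blocked fits or for fits with fewer libraries. Their counts therefore have no background beside them. Of single named genes, 8 estimates passed the threshold with the block that had not before, and none lost it. In the comparisons taken as paired, the blocked values of TP53I3 and SESN3 with IMP1088 in control cells are given beside their results.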
